A study of Homo sapiens with 41 samples.

Results

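The genes studied here encode subunits of the mitochondrial respiratory chain and ATP synthase that are made from nuclear DNA. They were taken by name from the count table of a time course in T98G, a human glioblastoma cell line: every protein-coding gene whose symbol starts with NDUFA, NDUFB, NDUFC, NDUFS or NDUFV and a digit, with UQCR, with COX4 to COX8 or with ATP5, and SDHA, SDHB, SDHC and SDHD. This gave 89 of the 58676 genes in the table, and 83 of them passed the filter on low counts. The rule did not take NDUFAB1 of complex I or CYC1 of complex III, which are given with the electron carriers. The cells had been grown in 10% fetal calf serum, kept without serum for 72 h and then given medium with 20% of it. Cells were lysed before serum return (0 min) and then in steps of 10 min, the last at 400 min, with 1 separately seeded dish and 1 library of rRNA-depleted total RNA at each of the 41 time points. No time point has a replicate, so errors below measure how the 41 libraries scatter around a smooth curve, which may be technical. All dishes carried the same line and differed only in the time after serum return, and none of the 41 libraries came from cells left without serum at the later times.

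The respiratory chain passes electrons from NADH through complex I, and from succinate through complex II, to coenzyme Q, then through complex III and cytochrome c to complex IV, where oxygen is reduced. Complexes I, III and IV pump protons across the inner membrane, and ATP synthase uses their return to make ATP. Mitochondrial DNA encodes a small part of each complex except complex II, and all the other subunits are imported from the cytosol. In nuclear promoters of these genes, sites for NRF1 and for the ETS factor GABP are textbook features. Adding serum to starved cells makes them leave quiescence and enter the cell cycle.

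Libraries held 18198706 to 64918350 counts, with a median of 41754437, and values are given as normalized counts, that is, counts divided by the deposited size factor of the library. Libraries differed in how their departures from each gene's mean over the 41 libraries ran with the GC content of transcripts. The slope of these departures lay between -0.22 (400 min) and 0.29 (30 min) log2 units per 10 points of GC. The 10, 30, 80 and 300 min libraries lay farthest from the median. Any time trend shared by genes of like GC content is part of these slopes. The 300 min library also lay farthest from the fitted curves, by a median of 0.13 log2 units over the genes past a minimum mean count. The canonical transcripts of the 83 subunit genes ranged from 34.6% to 69.5% GC, so these slopes touch the results below, and the main counts are also given with offsets per bin of GC content. The 0 min library was the lowest of all 41 for 30 of the 83 genes. The same count over all genes is not given, so a trait of these genes and one of that library cannot be told apart. Of 11 glial and glioblastoma markers, VIM (median 50281), CD44 (24812) and EGFR (6217) were abundant, whereas the astrocyte markers GFAP, S100B and AQP4 and the stem cell factor SOX2 were at or near 0, with highest values of 6.23, 4.15, 1.13 and 2.25. Of 13 markers of other cell types, all but CD68 and SYP stayed at or under 30.2 normalized counts in every library.

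Transcripts of the nuclear-encoded subunits stayed near their starved level through the 400 min. In the spline fit, 80 of the 83 genes (96.4%) changed by less than 0.5 log2 units between 0 and 400 min, against 45.9% of all genes tested and 56.3% of the 9128 protein-coding genes whose mean count reached 300. The median change at 400 min was 0.09, and 80% of the genes lay between -0.18 and 0.37. Over the 11 alternative analyses, the share of subunit genes inside this band was 92.8% to 97.6%. Over all 41 libraries, the highest normalized count of a gene was a median of 1.36 times its lowest, for the 81 genes whose mean reached 100. Together the 89 genes held 0.996% of the protein-coding counts at 0 min, at most 1.15% (10 min) and 0.87% at 400 min. Their summed normalized count was 200364 at 0 min, its lowest value, and 221285 at 400 min. Scaled by spike-in size factors instead, the sum was 222060 at 0 min, 158326 at its lowest (50 min) and 296143 at its highest (400 min). On that scale the 0 to 100 min libraries reached 247576 at most (median 202991). The 300 to 400 min libraries started at 193845 (median 217055), so these windows overlapped too. The sum on the deposited size factors was 200364 to 233209 (median 218442) in the 11 libraries from 0 to 100 min and 215269 to 239460 (median 221400) in the 11 libraries from 300 to 400 min, so the groups overlapped.

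Small changes did pass the test in some genes, mostly from 240 min on. A gene was called when its Benjamini-Hochberg adjusted p from edgeR's quasi-likelihood test, over all 21629 genes, was below 0.01. At 60 min no subunit gene was called in either direction, against 5.15% of all genes called higher and 1.23% called lower. At an unadjusted p below 0.05, 17 subunit genes passed at 60 min, 16 of them higher, and DESeq2 called 2 higher. At 120 min 3 of 83 were higher (ATP5F1C, NDUFB6 and UQCRFS1) and 0 lower, against 13.6% and 6.75% of all genes. At 240 min 14 were higher and 1 lower, against 21.6% and 18.5%. At 400 min 20 were higher and 3 lower, against 24.2% and 22.4%. Between 120 and 400 min, a comparison that does not rest on the 0 min library, 16 were higher and 3 lower, against 23.8% and 24.1%. Over the whole course, the spline terms were significant in 46 of the 83 genes, against 75.5% of all genes, and the Ljung–Box test of autocorrelation at lag 1 passed in 27, against 60.9%.

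The counts of calls depended on the processing. With GC-binned offsets the 400 min count became 11 higher and 11 lower, with evenly spaced knots 14 and 10, and with the total count as library size 12 and 7. Without the 0 min library no gene was called against 0 min, the median standard error of the change rising from 0.08 to 0.20, whereas 16 higher and 4 lower were still called between 120 and 400 min. With spike-in size factors no subunit gene was called in any comparison, whereas 5392 of all 21629 genes tested were called at 400 min. The median standard error of the subunit genes at 400 min was then 0.20. Of the 19 genes called between 120 and 400 min, 8 kept their call and direction in each of the 10 alternatives other than spike-ins. Among these, ATP5F1B, ATP5MK, NDUFV3, NDUFB9, SDHB and COX5A rose and SDHC fell. In the normalized counts themselves, the 300 to 400 min libraries all lay above the 0 to 100 min libraries in 7 genes (ATP5PB, ATP5MK, NDUFV3, NDUFA9, NDUFB9, SDHB and UQCRFS1), against 16.3% of all genes. They all lay below in 1 gene, SDHC, against 14% of all genes.

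**Figure D1:**
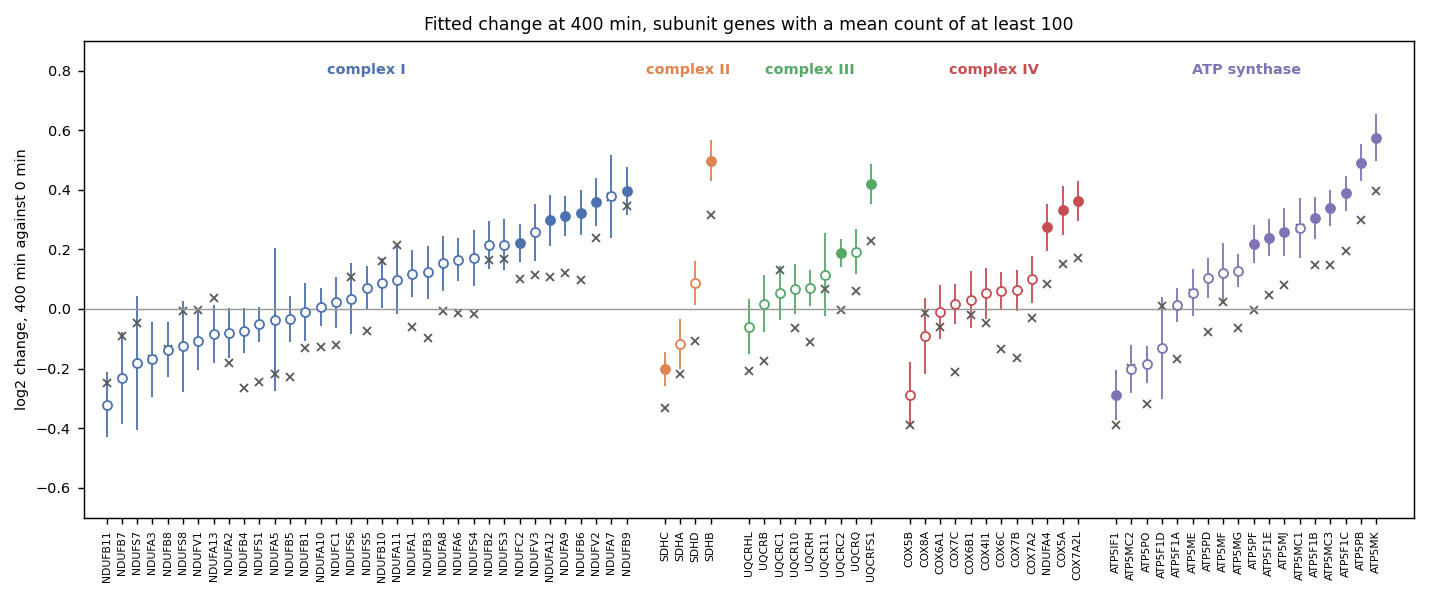
Fitted log2 change between 0 and 400 min (vertical axis) for 78 subunit genes of the 5 complexes whose mean count reached 100, by complex and in order of size. Points are the fit with the deposited size factors, with 1 standard error; filled points passed an adjusted p below 0.01, and crosses give the same change with GC-binned offsets. Most points lie within 0.4 of zero, and most crosses of AT-rich genes lie below their points.

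Complex I held 36 of the tested genes, of which 6 were called higher and 1 lower at 400 min, against 24.2% and 22.4% of all genes. The median change was 0.05 (5 and 4 called with GC-binned offsets). The genes of the NADH-binding arm differed among themselves. NDUFV1, which carries the NADH and flavin site, had 2066 to 2924 normalized counts (median 2425) from 0 to 100 min and 2056 to 2811 (median 2384) from 300 to 400 min. The groups overlapped, and its change at 400 min was -0.11 (SE 0.10, 95% interval -0.30 to 0.09). NDUFS1, the largest iron-sulfur subunit of the arm, went from 3974 to 4383 (median 4104) to 3585 to 4041 (median 3802), with a change of -0.05 (SE 0.06, edgeR adjusted p = 0.47). With GC-binned offsets this change was -0.25 and passed the test.

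NDUFV2, an iron-sulfur subunit of the same arm, was at 1947 to 2388 (median 2278) early and 2362 to 2779 (median 2644) late, and the groups overlapped slightly. It was called higher at 400 min (0.36, SE 0.08, edgeR adjusted p = 0.00019), but without the 0 min library its change was -0.11. NDUFV2 shares exon bases with an annotated lncRNA of nearly the same mean count (2454 and 2481), and a read in the shared bases counts for both. NDUFV3, an accessory subunit of the arm, was at 539.7 to 721.5 (median 585.7) early and 770.8 to 854.1 (median 807.7) late, with no overlap. Its fitted change at 60 min was -0.30, short of the threshold, and its change between 120 and 400 min was 0.28 (SE 0.06, edgeR adjusted p = 0.00016). Against 0 min, where it had 669.1 counts, its change at 400 min was 0.26 and not called (edgeR adjusted p = 0.019).

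The accessory membrane subunit NDUFB9 rose by 0.40 (SE 0.08, edgeR adjusted p = 3.8e-05), from 2014 to 2437 (median 2201) early to 2540 to 2939 (median 2619) late, with no overlap. Its change with GC-binned offsets was 0.35. Without the 0 min library it was 0.17. NDUFB6, another membrane-arm subunit, was called higher at 120 min (0.25) and at 400 min (0.32). However, its early libraries (875.6 to 1120) and late libraries (979.7 to 1132) overlapped, and its change of 0.10 with GC-binned offsets did not pass.

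Complex II consists of 4 nuclear subunits, and their transcripts moved in different directions. SDHB, the iron-sulfur subunit, had 1448 to 1678 normalized counts (median 1608) from 0 to 100 min and 1912 to 2149 (median 1982) from 300 to 400 min. Every late library lay above every early one. SDHB rose by 0.50 at 400 min (SE 0.07, edgeR adjusted p = 4.7e-08) and by 0.30 between 120 and 400 min (SE 0.05, edgeR adjusted p = 2.0e-07), and the change at 400 min stayed between 0.32 and 0.53 over the alternatives. SDHC, a membrane anchor, was at 2499 to 2923 (median 2603) early and 2176 to 2445 (median 2288) late, again with no overlap. It fell by 0.20 at 400 min (SE 0.06, edgeR adjusted p = 0.002) and by 0.19 between 120 and 400 min.

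SDHA, the flavoprotein that oxidizes succinate, overlapped between the windows, at 2416 to 2980 (median 2679) and 2242 to 2686 (median 2453), with a change of -0.12 (SE 0.08, edgeR adjusted p = 0.24) that was -0.22 and passed the test with GC-binned offsets. SDHA has 4 annotated pseudogenes by name, which together held 94.5% of the parent's mean count, SDHAP1 alone 35.8%. How many reads they share with SDHA was not measured. SDHD, the other anchor, was at 2365 to 2855 (median 2570) and 2448 to 2772 (median 2572), with a change of 0.09 (95% interval -0.06 to 0.24). The count of SDHB was on average 0.605 times that of SDHC from 0 to 100 min and 0.873 times from 300 to 400 min. SDHA was 1.69 and 1.23 times SDHB in the same windows. These ratios describe read counts and not molecules, since they are not divided by length.

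In complex III, 2 of 9 genes (22.2%) were called higher at 400 min and none lower, against 24.2% and 22.4% of all genes. The median change was 0.07 (0 and 0 called with GC-binned offsets). UQCRFS1, the Rieske iron-sulfur protein, had 2144 counts in the 0 min library, 2144 to 2725 (median 2614) from 0 to 100 min and 2821 to 3266 (median 2979) from 300 to 400 min, with no overlap. UQCRFS1 passed the test at 120 min (0.29), again at 240 min (0.44), and once more at the end of the course (0.42, SE 0.07, edgeR adjusted p = 5.1e-07). The change at 400 min was 0.23 with GC-binned offsets (edgeR adjusted p = 0.0104, just short of the threshold), and 0.11 without the 0 min library. UQCRC2, a core protein, was at 4519 to 5156 (median 4834) and 4725 to 5367 (median 5062), overlapping. Its call at 400 min (0.19, SE 0.05, edgeR adjusted p = 0.0008) was lost with GC-binned offsets, where the change was -0.0048, and was 0.07 without the 0 min library. UQCRH, the hinge protein, went from a median of 6918 to 6661, and its retrocopy UQCRHL from 716.8 to 674.5, with overlapping windows in both.

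Complex IV had 13 tested genes, of which 3 (23.1%) were called higher at 400 min and none lower, against 24.2% and 22.4% of all genes. The median was 0.06 (0 and 1 called with GC-binned offsets). COX4I1, which is built in early around the mitochondrially encoded core, was at 5036 to 6250 (median 5690) and 5192 to 6537 (median 5701), with a change of 0.05 (SE 0.09, 95% interval -0.12 to 0.23). COX5A, its neighbour in the complex, was at 1235 to 1516 (median 1320) and 1472 to 1741 (median 1577). The groups overlapped only at their edges, and COX5A rose by 0.27 between 120 and 400 min (SE 0.05, edgeR adjusted p = 3.2e-05). COX7A2L, a factor that joins complexes into supercomplexes, was at 2313 to 3031 (median 2707) and 2854 to 3145 (median 3043), and was called higher at 400 min (0.36, SE 0.07, edgeR adjusted p = 1.0e-05) but not with GC-binned offsets (0.17) or without the 0 min library (0.03). NDUFA4, named after complex I but now placed in complex IV, was called higher by 0.27 (SE 0.08, edgeR adjusted p = 0.0026), and this value became -0.19 without the 0 min library. Its early libraries (4036 to 5101) and late libraries (4674 to 5168) overlapped. Tissue-specific forms were at or near 0: COX4I2, COX6A2, COX6B2, COX7A1, COX7B2 and COX8C had 4, 1, 6, 1, 0 and 39 counts in all 41 libraries together, and none passed the filter.

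In ATP synthase, 8 of 19 genes were called higher and 1 lower at 400 min, against 24.2% and 22.4% of all genes, with a median change of 0.22. With GC-binned offsets these counts were 4 and 4, with a median of 0.05. ATP5MK, a small membrane subunit linked to dimers of the enzyme, had 1435 to 1793 normalized counts (median 1578) from 0 to 100 min and 1798 to 2209 (median 2068) from 300 to 400 min. The groups did not overlap. ATP5MK rose by 0.58 at 400 min (SE 0.08, edgeR adjusted p = 2.1e-08), by 0.39 with GC-binned offsets, and by 0.38 between 120 and 400 min. ATP5PB, the b subunit of the peripheral stalk, was at 4286 to 4993 (median 4698) and 5562 to 6263 (median 5827), also without overlap, and rose by 0.49 (SE 0.06, edgeR adjusted p = 3.8e-09). Its transcript is AT-rich, and with GC-binned offsets the change was 0.30 with an edgeR adjusted p of 0.022. Without the 0 min library the changes of ATP5MK and ATP5PB were 0.37 and 0.27.

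In the catalytic head, the beta subunit ATP5F1B, which binds ADP and makes ATP, was at 12018 to 14928 (median 13136) and 14838 to 16935 (median 15449.8), overlapping at their edges. It rose by 0.31 at 400 min (SE 0.07, edgeR adjusted p = 0.00019). ATP5F1C, the gamma subunit that turns inside the head, went from 2684 to 3315 (median 3082) to 3312 to 3695 (median 3428), the lowest late library lying just under the highest early one, and rose by 0.39 (SE 0.06, edgeR adjusted p = 3.1e-07). Without the 0 min library the changes of ATP5F1B and ATP5F1C were 0.02 and 0.16. Their alpha partner ATP5F1A had a change of 0.01 (SE 0.06). ATP5IF1, the protein that inhibits ATP hydrolysis by the enzyme, was at 731.5 to 1025 (median 833.1) and 687.2 to 835.5 (median 783.6), overlapping, and was called lower at 400 min (-0.29, SE 0.08, edgeR adjusted p = 0.0033). Between 120 and 400 min its change was -0.13 and did not pass, and without the 0 min library that at 400 min was -0.52.

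**Figure D2:**
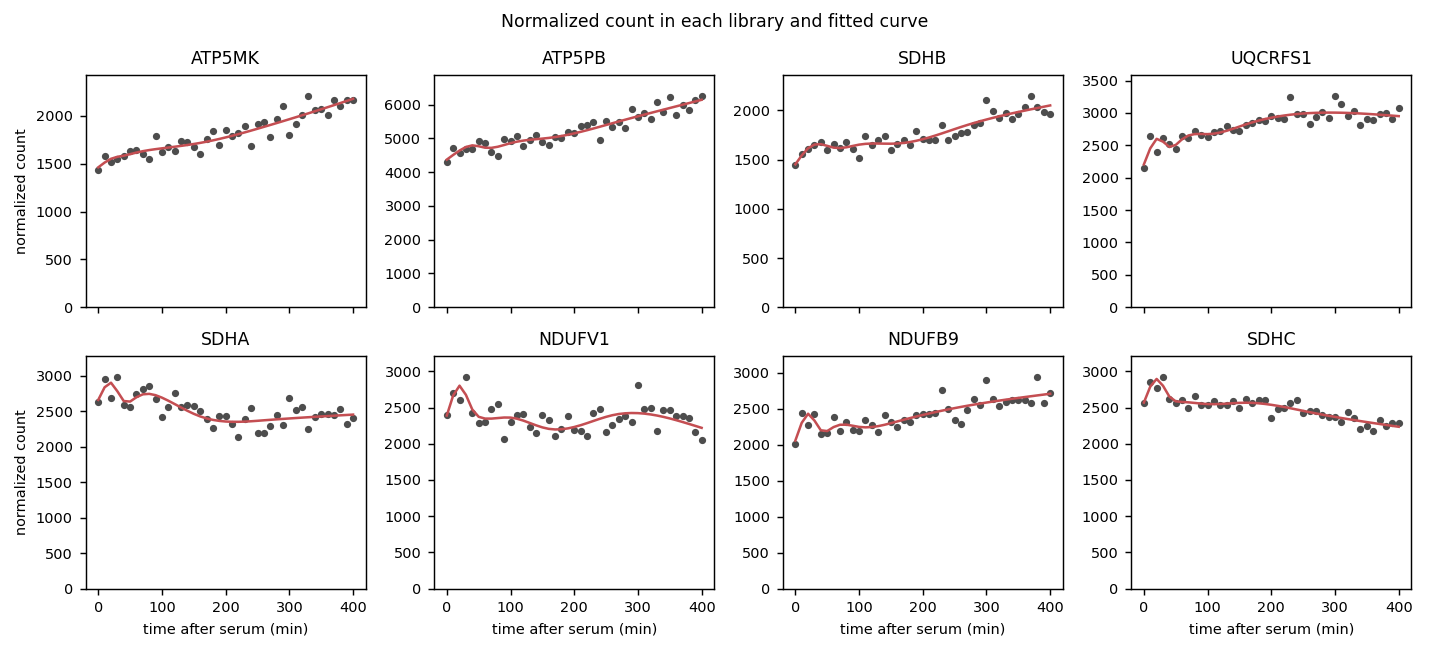
Normalized count in each of the 41 libraries (points) and fitted curve (line) against time after serum return in min, for 8 subunit genes, with each vertical axis starting at 0. ATP5MK, ATP5PB, SDHB and UQCRFS1 climbed by 0.42 to 0.58 log2 units over 400 min, SDHA and NDUFV1 showed no called change, NDUFB9 rose by 0.40, and SDHC was highest between 10 and 30 min and declined after that.

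The ring of ATP synthase that rotates in the membrane is built from a single protein encoded by 3 nuclear genes, ATP5MC1, ATP5MC2 and ATP5MC3, and the share of these genes shifted. ATP5MC3 was the highest, at 8051 to 9673 (median 8874) early and 9585 to 10742 (median 10162) late. ATP5MC2 was at 3546 to 4708 (median 4090) and 3387 to 4259 (median 3579), and ATP5MC1 at 1411 to 1814 (median 1511) and 1666 to 1985 (median 1750). The log2 ratio of ATP5MC1 to ATP5MC2 was -1.40 ± 0.09 (SD, n = 11 libraries) from 0 to 100 min and -1.05 ± 0.04 (SD, n = 11) from 300 to 400 min, without overlap. This difference of 0.35 had p = 1e-05 in a two-sided permutation test with 100000 resamples, the smallest value these can give, and adjusted p = 2e-05 over the 6 pairs tested. The canonical transcripts of ATP5MC1 and ATP5MC2 are alike in GC content (55.1% and 54.9%). The log2 ratio of ATP5MC2 to ATP5MC3 dropped by 0.39, from -1.11 ± 0.07 to -1.49 ± 0.09 (SD, n = 11 each; permutation p = 1e-05, adjusted p = 2e-05), while their GC contents differ (54.9% and 38.5%). The ratio of ATP5MC1 to ATP5MC3 differed by -0.03 (permutation p = 0.26, adjusted p = 0.31).

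Of the other pairs of related subunits, COX7A2 to COX7A2L changed by -0.17, from -0.14 ± 0.05 to -0.31 ± 0.05 (SD, n = 11 each; permutation p = 1e-05, adjusted p = 2e-05), with no overlap. Their transcripts have 46.8% and 38.6% GC. UQCRH to UQCRHL differed by 0.02 (permutation p = 0.63, adjusted p = 0.63). UQCRHL is a retrocopy of UQCRH, and a read that maps to both counted in full for each. How many reads they share was not measured, so a level ratio of the genes and shared reads cannot be told apart. NDUFA4 to NDUFA4L2, the form induced by hypoxia in other cells, changed by -0.45 (permutation p = 0.0042, adjusted p = 0.0063). NDUFA4L2 had only 10.5 to 32.9 normalized counts in any library, and the test did not pass with narrower windows. Libraries of neighbouring times are separate dishes but share the trend of the course, so these tests compare early with late libraries and say nothing of the shape between them. The other 6 of the 12 listed pairs had a partner under 10 counts.

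**Figure D3:**
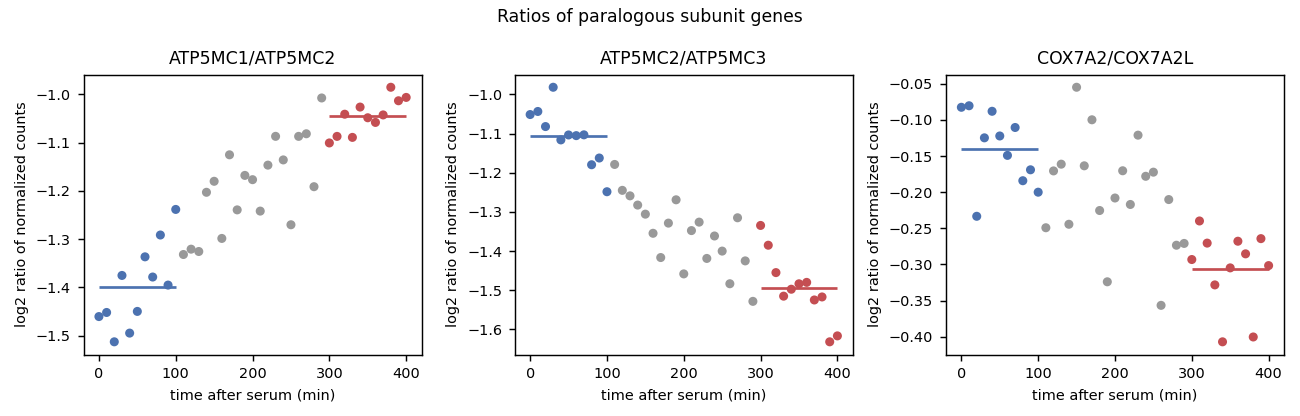
Log2 ratio of normalized counts of paralogous subunit genes (vertical axes) in each library against time after serum return in min. Blue points are the 11 libraries from 0 to 100 min, red points the 11 from 300 to 400 min, grey points those between, and lines are the means of the windows; in all 3 pairs the red and blue points do not overlap.

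Levels were compared between genes only after division by the length of the canonical transcript. On this scale of normalized counts per kb, the mean over libraries ran from 125 to 12635 among the 81 genes whose mean reached 100. UQCRH was at the top on this scale with 11539 to 14503 over the 41 libraries. COX7C followed with 7941 to 10412 and did not overlap UQCRH, while ATP5F1B (6832 to 9628) and COX4I1 (6600 to 8568) overlapped COX7C and each other. Medians per complex were 4589 in complex IV, 3017 in ATP synthase, 2374 in complex III, 1823 in complex II and 1679 in complex I. The order depends on the length used: divided by all annotated exon bases, NDUFA1 (7118) and ATP5F1B (6322) lay above UQCRH (5060), and COX4I1 was at 1165. Subunit transcripts were short, with a median of 763 bases against 3275 in all protein-coding genes tested.

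The promoters of these genes were searched for short runs of letters, which the choice by name did not use. RefSeq sequences (GRCh38.p14) from 250 bases before to 50 after the start were at hand for 66 of the 83 genes. The ETS letters CCGGAAG, the core of a GABP site, were found on either strand in 20 of them (30.3%), against 10.7% of all 27305 promoters, 14.4% of those of protein-coding genes and 40.5% of those of 74 mitochondrial ribosomal protein genes. The NRF1 letters GCATGCGC were found in 13 (19.7%), against 3.27%, 4.25% and 8.11% in the same order. The YY1 letters AAGATGG were found in 16 (24.2%), against 6.06%, 6.44% and 32.4%. At least 1 of the ETS and NRF1 runs was in 27 (40.9%), against 13.3%. SP1 letters (GGGCGG) were in 63.6% against 44.6% of all, 59.3% of protein-coding and 59.5% of mitochondrial ribosomal promoters. Against all promoters, CCAAT was in 33.3% against 35.7%, the TATA letters TATAAA in 9.09% against 12%, and the E-box CACGTG in 10.6% against 7.43%. These runs are distinct in sequence but may lie beside each other, and SP1 and ETS letters can overlap other GC-rich motifs. Among the 15 genes called higher at 400 min that have a sequence, ETS letters were in 3 and NRF1 letters in 3.

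The sequences before the start of 3 genes whose late libraries all lay above the early ones are shown, since these genes carry the rises described above. Each is the stretch of the RefSeq window that lies outside annotated exons, read 5′ to 3′ on the strand of the gene, with ETS and NRF1 letters in capitals. SDHB lies on chromosome 1, minus strand (chr1:17054033-17054282), ATP5MK on chromosome 10, minus strand (chr10:103396493-103396625), and UQCRFS1 on chromosome 19, minus strand (chr19:29213152-29213234).
SDHB: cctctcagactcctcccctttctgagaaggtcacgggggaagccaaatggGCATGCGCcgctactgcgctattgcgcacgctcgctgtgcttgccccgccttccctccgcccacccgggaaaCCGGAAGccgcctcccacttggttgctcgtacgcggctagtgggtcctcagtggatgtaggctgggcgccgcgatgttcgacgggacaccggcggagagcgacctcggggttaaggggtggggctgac
ATP5MK: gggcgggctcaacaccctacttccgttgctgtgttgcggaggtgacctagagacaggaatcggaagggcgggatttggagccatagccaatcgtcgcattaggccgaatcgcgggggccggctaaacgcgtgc
UQCRFS1: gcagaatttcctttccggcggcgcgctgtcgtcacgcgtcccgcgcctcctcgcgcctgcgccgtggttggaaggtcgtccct
The SDHB stretch holds 1 NRF1 run and 1 ETS run, and the other 2 stretches hold neither. The whole 300-base window of ATP5MK does hold ETS letters, outside the stretch shown, and that of UQCRFS1 holds neither run.

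The subunits encoded by mitochondrial DNA were lower late in the course. All 13 mRNAs had their 300 to 400 min libraries below their 0 to 100 min libraries, against 14% of all genes. At 400 min 12 of the 13 were called lower, against 22.4% of all genes (8 without the 0 min library and 1 with spike-in size factors). Their median change was -0.49 against -0.0042 over all genes tested. MT-CYB, the cytochrome of complex III, went from 3908 to 5517 normalized counts to 2523 to 3178, a change of -0.76 (SE 0.09, edgeR adjusted p = 1.6e-09). MT-ND4 of complex I changed by -0.69, MT-ND6 by -0.60 and MT-ND5 by -0.59. MT-CO1, the catalytic subunit of complex IV and the most abundant of the 13, went from 78995 to 104539 to 57870 to 68235 (-0.51, SE 0.07, edgeR adjusted p = 4.1e-08). MT-ATP8 had a change of -0.30 (SE 0.14) and did not pass. Their summed normalized count was 206301 to 275936 early and 156198 to 180505 late, whereas that of the nuclear subunits overlapped between the windows. The difference between both groups of genes was not tested as such. Total RNA was measured and scaled within each library, not per cell. Fewer mitochondria per cell, less RNA per mitochondrion and a fall only relative to other RNA therefore cannot be told apart.

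Genes that build and feed the complexes are given next, each list beside the median of 0.09 of the subunits. Over all genes tested, 24.2% were called higher and 22.4% lower at 400 min. Of 22 genes of mitochondrial protein import and folding, 18 were higher and 0 lower at 400 min, with a median of 0.85. TIMM8A, a small carrier of inner-membrane proteins, went from 225.1 counts at 0 min to 1119 at 400 min (2.24, SE 0.10), TOMM40, the import pore, changed by 1.72, GRPEL1, a partner of the matrix chaperone, by 1.71, and HSPD1, the matrix chaperonin, by 1.56. Of 78 mitochondrial ribosomal protein genes, 56 were higher and 2 lower, with a median of 0.46 (45 and 5 with GC-binned offsets, median 0.31). MRPL3 (1.20), MRPS35 (1.18) and MRPL32 (1.14) rose. MRPL34 (-0.94) and MRPS6 (-1.73) were lower, and the exons of MRPS6 share bases with SLC5A3, a transporter gene counted at a mean of 14046 against 4831 for MRPS6. Of 85 cytosolic ribosomal protein genes, 56 were higher and 1 lower, with a median of 0.33 (39 higher with evenly spaced knots and 47 with GC-binned offsets). RPL22L1 (1.30), RPL26L1 (0.76) and RPL7L1 (0.74) rose, and RPL3L, at 23.9 counts at 0 min and 0 at 400 min, was called lower.

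Assembly factors are given by complex, beside 24.2% higher and 22.4% lower among all genes at 400 min. Of 24 for complex IV, 12 were higher and 3 lower at 400 min, with a median of 0.42 (5 and 1 without the 0 min library, 5 and 0 with spike-in size factors). COA7 (1.41), the twin-cysteine protein COA4 (1.26), CMC2 (0.92) and the copper chaperone SCO1 (0.89) rose. Of 18 for complex I, 5 were higher and 2 lower, with a median of 0.16 (1 and 0 without the 0 min library, 4 and 0 with spike-ins). NDUFAF4 went from 280.1 counts at 0 min to 791 at 400 min (1.39, SE 0.15), and NDUFAF2 (0.93), NDUFAF6 (0.74) and NDUFAF8 (0.73) rose. NDUFAF6 shares exon bases with PLEKHF2, and the NDUFAF8 change fell to 0.07 without the 0 min library. Of 6 for complex III, BCS1L (0.57), which inserts the Rieske protein, and TTC19 (0.48) were higher and none lower, with a median of 0.17. Of 6 for ATP synthase, TMEM70 (0.39) was higher, and TMEM242 (-0.68), ATPAF2 (-0.48) and FMC1 (-0.33) were lower, with a median of -0.24. FMC1 shares exon bases with LUC7L2 and their read-through gene, which have about 6 times its count. Of 4 for complex II, 0 were called by edgeR or DESeq2, 1 had an unadjusted edgeR p below 0.05, and the median was -0.14. Without the 0 min library, and likewise with spike-ins, no factor for complex II, complex III or ATP synthase was called.

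**Figure D4:**
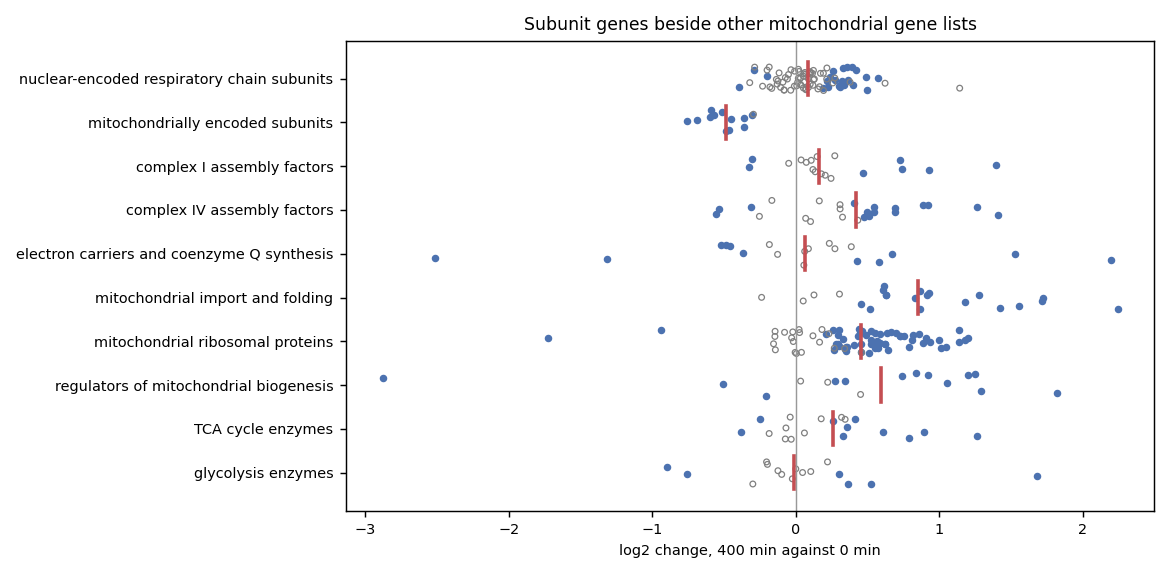
Fitted log2 change between 0 and 400 min (horizontal axis) for each tested gene of 10 groups (rows). Filled points passed an adjusted p below 0.01, open points did not, and red bars are medians; the subunit genes lie in a narrower band about 0.09 than the import, ribosomal and carrier genes, and the mitochondrially encoded subunits lie below zero.

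Among electron carriers and genes of coenzyme Q synthesis, 5 of 19 were higher and 6 lower at 400 min, against 24.2% and 22.4% of all genes. The median was 0.06 (2 and 2 called both without the 0 min library and with spike-ins). The 5 include NDUFAB1 (0.58), a complex I subunit, and CYC1 (0.42), a complex III subunit, which the naming rule did not take. CYCS, which encodes the cytochrome c that links complexes III and IV, went from 4348 counts at 0 min to 13470 at 400 min (1.53, SE 0.14, edgeR), and PDSS1, which makes the side chain of coenzyme Q, from 76.8 to 397.9 (2.19, SE 0.14). The kinase-like proteins COQ8A and COQ8B went from 481.4 to 87.2 (-2.52, SE 0.12) and from 621.4 to 262.7 (-1.32, SE 0.10). Of 16 tested regulators of mitochondrial biogenesis, 10 were higher and 3 lower, with a median of 0.59 (5 and 1 without the 0 min library, 6 and 1 with spike-ins). PPARGC1A, the coactivator PGC-1alpha, had 663 to 1207 counts from 0 to 100 min and 99.1 to 132.8 from 300 to 400 min (-2.88, SE 0.14). Its relative PPRC1 rose by 1.25, the mitochondrial DNA helicase TWNK by 1.82, and GABPB1, the partner subunit of the ETS factor GABPA, by 1.29. GABPA itself had a change of 0.03 (edgeR adjusted p = 0.93), whereas NRF1 was called higher (0.35) and YY1 lower (-0.21).

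The next lists also stand beside 24.2% higher and 22.4% lower among all genes at 400 min. Of 19 enzymes of the TCA cycle, 8 were higher and 2 lower, with a median of 0.26, and IDH3A (1.26), DLAT (0.89), FH (0.78) and CS (0.60) rose. The counts were 8 and 5 with GC-binned offsets (median 0.08), and 3 and 0 both without the 0 min library and with spike-ins. Of 16 tested glycolysis enzymes, 4 were higher and 2 lower, with a median of -0.01 (4 and 5 with GC-binned offsets, 1 and 1 without the 0 min library, 1 and 2 with spike-ins). PFKP rose by 1.68 and HK2 by 0.53, whereas ENO2 (-0.90) and PFKM (-0.76) were lower. Of 12 hypoxia targets, 2 were higher and 6 lower, with a median of -0.57 (2 lower without the 0 min library and 3 with spike-ins). EGLN3 (-1.11), KDM3A (-0.93) and BNIP3L (-0.86) were lower and VEGFA (0.74) higher. Among 7 tested glial and glioblastoma markers, 4 were higher and 2 lower, with EGFR at 2.23, OLIG2 at 2.14, CD44 at 1.19 and SLC1A3 at -1.27 (2 and 1 without the 0 min library). Of 8 tested markers of other cell types, CDH5, with at most 12.6 counts in any library and 0 at 0 min, was called higher, and SYP (-0.79) and CD68 (-0.37) were lower, CD68 sharing most of its exon bases with a lncRNA of far higher count. With spike-in size factors 16 import genes, 19 mitochondrial and 8 cytosolic ribosomal protein genes were called higher, and without the 0 min library 10, 8 and 3. These counts describe the lists, and no list was tested against other genes.

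The fitted changes of the subunit genes were set against base composition. Across the same 81 genes, the change at 400 min and the GC content of the transcript had Pearson's r = -0.42 and Spearman's rho = -0.42, a description over genes that share the same libraries. Without the 0 min library these were -0.06 and -0.07, and without the 400 min library -0.32 and -0.31. Evenly spaced knots gave -0.66 and -0.64. With GC-binned offsets the values were 0.09 and 0.11. These offsets take out each library's median departure per bin of GC content, so a loss of the trend is built in. Its cause was not tested. The 20 genes called higher had a median GC of 43.2%, the 3 called lower 51.3%, and all 83 subunit genes 47.2%. Between 120 and 400 min, NDUFB9 (53.0% GC), ATP5F1B (50.6%), COX5A (45.4%) and SDHB (46.0%) rose and SDHC (46.9%) fell both with and without the offsets.

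**Figure D5:**
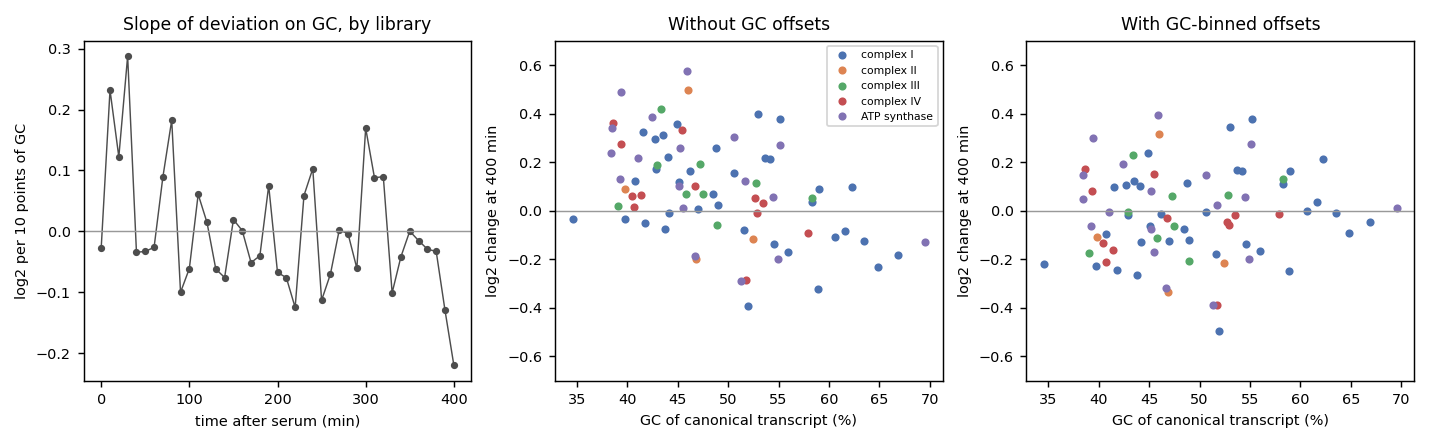
Left, slope on GC content (log2 units per 10 points of GC) of the libraries' departures from each gene's mean, against time after serum return in min. Middle and right, log2 change at 400 min against GC content of the canonical transcript in percent for subunit genes of each complex. The middle uses deposited size factors and the right GC-binned offsets. The offsets are built to take out trends with GC, so the loss of the downward trend (r = -0.42 and 0.09) is no test of its cause.

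Reads shared between genes limit some of these values, since the authors counted a read for every gene it touched. On the same strand, 28 of the 83 genes share exon bases with another annotated gene, and in 18 the partner has at least 10% of their mean count. Among the genes that rose, NDUFA9 shares bases with 2 read-through genes of mean counts 1527 and 1161 against its 1897. Its windows did not overlap (1612 to 1955 and 1968 to 2198), and its change of 0.31 at 400 min (SE 0.07, edgeR adjusted p = 0.00011) was 0.12 and not called with GC-binned offsets, and 0.0035 without the 0 min library. The 2 read-through genes NDUFC2-KCTD14 and ATP5MF-PTCD1, which met the naming rule, changed by 0.10 and 0.19 without passing the test, and share exon bases with NDUFC2 and ATP5MF. Annotated pseudogenes carry the names of 49 of the 83 genes, and in SDHA and COX6A1 the largest held at least 10% of the parent's count. ATP5MGL had a mean of 10.5 counts, and its change of 1.14 (SE 0.66, edgeR adjusted p = 0.14) did not pass.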

How the data were processed

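The authors trimmed reads with cutadapt 1.11, aligned them to GRCh38 with STAR 2.5.2a and deposited raw counts per gene (featureCounts, exons, stranded); reads that map or overlap more than once counted in full for each gene. They also deposited a normalized signal, the count divided by the DESeq2 1.24.0 size factor of its library. Recomputed size factors equalled the deposited ones. Symbols, types, exons and GC content came from GENCODE release 44, a later annotation on the same genome, to which 58207 of 58676 genes matched (99.2%).

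Genes with over 10 counts in 1 library and over 2 in 3 consecutive time points were kept (21629). In edgeR 4.0.16 (R 4.3.3), counts were modelled on time by natural splines (7 terms, inner knots 20, 40, 60, 100, 160, 260 min) with robust quasi-likelihood dispersions and 33 residual degrees of freedom, and p-values were adjusted by Benjamini-Hochberg over all genes. Ratios of paralogs used log2(normalized count + 0.5). Steps were tested on simulated data. Intervals of a change cover the spread about the curve only. Alternatives were TMM, library size, spike-ins, no filter, other knots, DESeq2 1.42.0, another threshold and libraries left out; GC-binned offsets (20 bins), leaving out the 400 min library and leaving out the 4 libraries of outlying GC slope were added after the data were seen. Named are the 3 largest rises and falls per complex that passed and whose mean reached 100, 6 core subunits and the paralog pairs. Up to 4 genes per list are named as well. Genes added for non-overlapping windows, shared reads, level or promoter letters were chosen after their values were seen. The results of 1 gene are not reported here. Members and lists were chosen with earlier results of these data known. Python 3.11.15, scipy 1.17.1 and matplotlib 3.10.9 were used for the other steps.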

Additional observations from a re-analysis of the deposited data

How the results depend on the processing

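Counts of subunit genes called, higher and lower, are given here where they moved by over 1.5 times. With spike-in size factors every contrast gave 0 subunit genes, whereas 5392 of all genes were called at 400 min. Over the course 11 subunit genes then changed, against 46. Without the 0 min library 0 were called against 0 min. With GC-binned offsets, 1 gene was lower at 60 min, and for 120 min 0 were higher and 2 lower. The counts were 8 and 8 for 240 min, 11 and 11 for 400 min, and 12 lower between 120 and 400 min. With evenly spaced knots 4 were lower at 120 min, for 240 min 7 were higher and 8 lower, and for 400 min 10 were lower. With the total count as library size 1 was higher at 120 min, for 240 min 6 were higher and 4 lower, for 400 min 12 and 7, and 5 were lower between 120 and 400 min. TMM gave 5 lower at 400 min, DESeq2 2 higher at 60 min and 5 at 120 min, and no filter 1 higher at 120 min. Without the 300 min library 1 gene was higher at 60 min, and 5 were lower at 400 min. Without the 10, 30, 80 and 300 min libraries 4 were higher at 60 min and 7 at 120 min, and without the 400 min library no count moved that far. At an adjusted p below 0.05, the counts were 5 higher and 1 lower for 60 min, 9 higher for 120 min, 23 higher and 3 lower at 240 min, 7 lower at 400 min and 7 lower between 120 and 400 min.

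Of the single genes followed at 400 min, NDUFA4 (-0.19) and NDUFV2 (-0.11) turned sign without the 0 min library, and UQCRC2 (-0.0048) with GC-binned offsets. The ratio of NDUFA4 to NDUFA4L2 missed its threshold with narrower windows (difference -0.36). The cause was not tested, except that leaving out the 0 min library extends the curve beyond its libraries. With 1 library per time point, the smallest change called at 400 min was 0.19 log2 units, and smaller changes were not resolved at this spread.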
